A study of Arabidopsis thaliana with 12 samples.

Results

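A set of 131 probe sets, of 22746 tested, marks transcripts whose signal was lost from wild-type Col-0 seedlings within 60 min of cordycepin and was lost less, or not at all, from xrn3-8 seedlings. Members were chosen on 3 values, each a difference of means of 3 arrays on the log2 scale. The change in Col-0 (60 min minus 0 min) had to be -1 or lower, that in xrn3-8 above -2, and the second value less the first at least 0.8. These thresholds were met on the deposited scale by 136 probe sets, of which 5 were set aside by gene name (EXLA2, AT1G22810, AT1G54050, UGT85A2 and UGT88A1). Of the members, 67 carry exactly 1 gene in the probe table, all 67 of them protein-coding, and 64 are not listed in it and are given by probe set or by count. The size of the set depends on the scale: with arrays centred on their Bacillus subtilis spike-in controls, 62 probe sets met the same rule, 54 of them members.

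The RNA came from whole Arabidopsis thaliana seedlings grown on MS plates in long days and collected at 14 days, and it was hybridised to 12 arrays of 1 colour. Col-0 (wild type) and the xrn3-8 line were each sampled before treatment (0 min) and 60 min after 150 mg/l cordycepin, with 3 biological replicates in each of the 4 groups. The labels list no untreated group at 60 min, so cordycepin and the time and handling that go with it cannot be told apart. They do not say what kind of lesion xrn3-8 is, and XRN3 itself was not analysed here. Within a group the arrays correlated at 0.995 to 0.998 over all probe sets. The median log2 signal of an array was 4.8 to 4.87 at 0 min and lower, at 4.63 to 4.69, at 60 min. Of the markers chosen to check the tissue, the leaf gene RCA (Rubisco activase) stood at 12.83 in untreated Col-0 and the root hair expansin gene EXPA7 at 3.15, near the lower quartile of the arrays (2.98 to 3.10). The other green tissue and root markers and all 7 seed storage markers were not measured on a named probe set. In whole seedlings, fewer cells of a type and less RNA per cell cannot be told apart.

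XRN3 is a nuclear exoribonuclease that digests RNA from the end that was made first. After a transcript has been cleaved at its poly(A) site, the enzyme degrades the piece still held by RNA polymerase, which helps the polymerase to leave the gene. Cordycepin is an adenosine analogue that ends an RNA chain once it is built in, so that new transcripts are no longer completed and the level of an existing one falls by its own decay. Bulk mRNA decay in plants is mainly the work of cytoplasmic enzymes, among them XRN4. No source used here states how the arrays were scaled to each other, so the values are read as levels relative to the other probe sets of an array.

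The median member lost more of its signal in Col-0 than in xrn3-8: 31.6% of the starting signal was left in Col-0 at 60 min and 62.9% in xrn3-8. On the log2 scale the median change was -1.66 in Col-0 (lowest -3.40) and -0.67 in xrn3-8 (range -1.93 to 0.19), against 0.07 and 0.09 over all probe sets. The difference between the changes had a median of 0.94 and reached 2.26, with a standard error (SE) of 0.10 to 0.28 in the fit. These values chose the members, so they describe them and carry no test. For the same reason nothing is read from the calls of the fit (adjusted p under 0.05), which were 131 of 131 for the fall in Col-0, where 20.1% of all probe sets were called. They were 131 for the difference between the genotypes' changes (5.08% of all probe sets) and 103 for a fall in xrn3-8 (15.9%).

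The description as kept in xrn3-8 holds for a part of the set. The change in xrn3-8 was above -0.5 for 51 members, between -0.5 and -1 for 39, and between -1 and -2 for 41, which therefore fell by at least the amount that defines a loss in Col-0. Members in the first class had a median of 43.4% left in Col-0 and 83.1% in xrn3-8, and those in the last 19.3% and 38.4%. In Col-0 all 3 arrays at 60 min lay below all 3 at 0 min for 131 members, as for 21.8% of all probe sets, and in xrn3-8 for 113, against 17.8% of all. In xrn3-8 the mean at 60 min was above that at 0 min for 4 members, with arrays of both times overlapping in each case (0 members separated upward, against 31.5% of all probe sets).

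**Figure D1:**
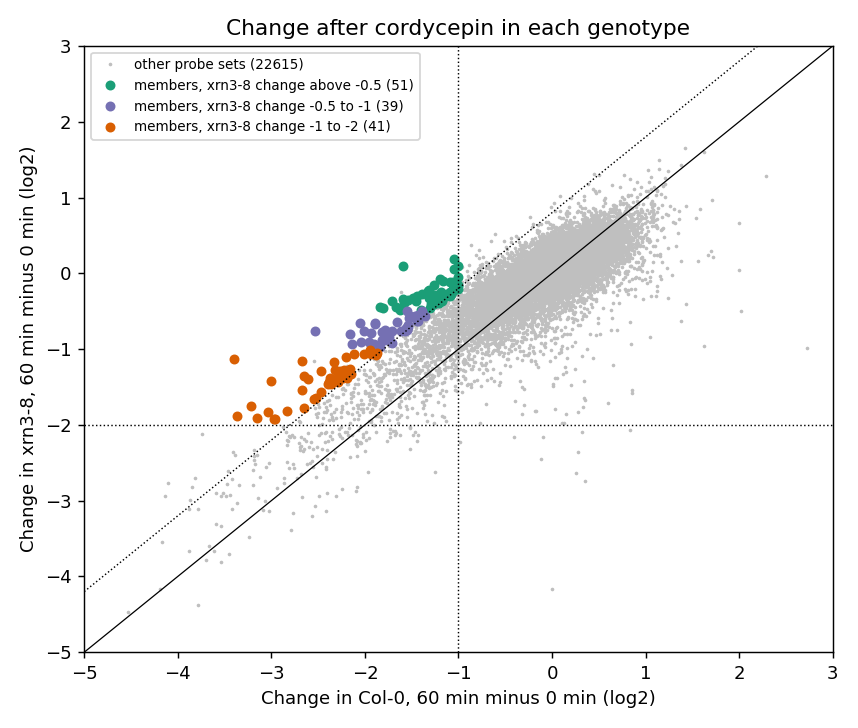
Change of each probe set after cordycepin in Col-0 (horizontal axis) and in xrn3-8 (vertical axis), both as log2 differences of means of 3 arrays; grey points are the other probe sets, coloured points the members by their change in xrn3-8, the solid line marks equal change and the dotted lines the 3 thresholds. Members occupy the band above the upper dotted line, with 51 above -0.5 and 41 at -1 or lower in xrn3-8.

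A gap between the changes can arise from the level at 60 min, from the level at 0 min, or from both, and the members divided along this line. The largest group, 68 members, started with less than 0.5 between the genotypes and ended at least 0.5 higher in xrn3-8. A second group of 42 started at least 0.5 lower in xrn3-8 and did not end 0.5 higher, so that their smaller fall began from a lower level. Another 12 were at least 0.5 higher in xrn3-8 at both times. Of the rest, 3 started lower and ended higher by at least 0.5, and 6 stayed under 0.5 at both times. The bound of 0.5 was chosen after the values were seen.

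Across all members the median genotype difference (xrn3-8 minus Col-0) was -0.27 before cordycepin and 0.75 after it, and for 73 members it turned from negative to positive. At 60 min the 3 xrn3-8 arrays lay above all 3 Col-0 arrays for 97 members (21.1% of all probe sets) and below them for 9 (19.2%). At 0 min they lay below for 71 (23.6%) and above for 19 (20.5%). The rule pushes both differences in these directions, so the counts are given as a description.

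**Figure D2:**
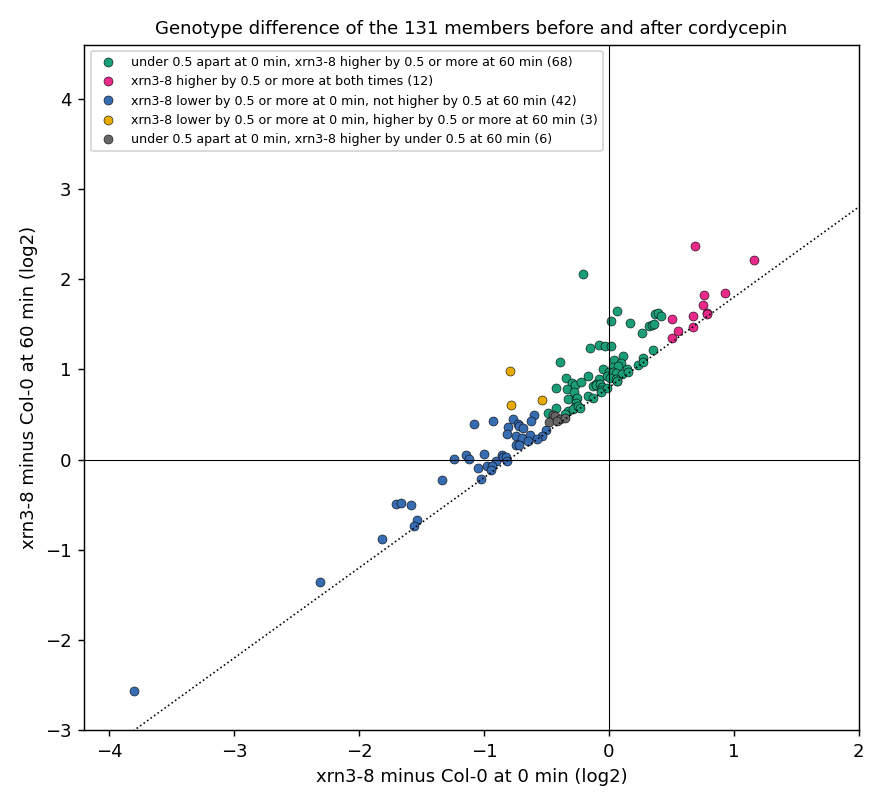
Genotype difference (xrn3-8 minus Col-0, log2) of the 131 members at 0 min (horizontal axis) and at 60 min (vertical axis), coloured by group; the dotted line is the threshold of 0.8 on the difference between the changes. The 68 members that started under 0.5 apart lie to the upper right of the 42 that started lower in xrn3-8, which reach down to -3.80 at 0 min.

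Transcripts with a similar start and a higher level at 60 min in xrn3-8 began at medians of 7.87 (Col-0) and 7.81 (xrn3-8). At 60 min the medians were 5.99 and 7.11, which left 28.4% of the starting signal in Col-0 and 58.8% in xrn3-8. The change in xrn3-8 was above -0.5 for 24 of them and -1 or lower for 23. Of the 68, 35 are named.

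Among these were components of membrane trafficking. AT4G32350 encodes a protein of the family that regulates the Vps4 ATPase in the multivesicular body pathway, by which membrane proteins are sorted for degradation. Its log2 signal in Col-0 was 7.60, 7.85 and 7.58 before cordycepin and 5.05, 5.07 and 4.89 after it. In xrn3-8 it was 7.56, 7.64 and 7.89 before and 6.41, 6.51 and 6.70 after. The genotypes overlapped at the start and stood apart at 60 min, with a change of -2.67 ± 0.11 (SE) in Col-0 and -1.16 ± 0.11 in xrn3-8, or 15.7% of the starting signal in Col-0 and 44.9% in xrn3-8. ELC encodes an ubiquitin-binding subunit of ESCRT-I, a complex of the same pathway. It read 8.25, 8.32 and 8.35 before cordycepin and 6.99, 6.83 and 6.77 after it in Col-0, and 7.98, 8.05 and 8.00 before and 7.65, 7.57 and 7.91 after in xrn3-8. The change was -1.44 ± 0.09 in Col-0 and -0.30 ± 0.09 in xrn3-8, where the 3 arrays at 60 min were all below those at 0 min by a small margin. AT2G24330, which encodes a lunapark protein of the endoplasmic reticulum network, started at 8.72 and 8.62 and changed by -1.18 ± 0.09 and -0.25 ± 0.09. It was picked out after its values were seen.

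AT1G21550 encodes a calcium-binding protein with EF-hands. Its signal was 8.23, 8.16 and 8.29 before cordycepin and 6.51, 6.40 and 6.36 after it in Col-0. In xrn3-8 it was 8.13, 8.60 and 8.45 before and 8.04, 7.76 and 8.02 after, so that the xrn3-8 arrays at 60 min reached almost the range of the Col-0 arrays at 0 min. The change was -1.80 ± 0.11 in Col-0 and -0.45 ± 0.11 in xrn3-8, a difference of 1.35 ± 0.16. AT1G15010, whose function is not annotated in the sources used here, was the strongest named member at the start. It read 11.13, 11.36 and 11.30 before cordycepin and 9.78, 9.67 and 9.47 after it in Col-0 and 11.62, 11.65 and 11.55 before and 11.12, 11.09 and 11.17 after in xrn3-8, and the share of the signal left was 32.5% and 71.7%. In this case xrn3-8 was above Col-0 on every array of the same time, by 0.34 before and 1.49 after.

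CCL (CCR-like) is a gene whose mRNA stability is known to be under control of the circadian clock. It was among the strongest members, at 11.10, 11.17 and 11.14 before cordycepin and 9.33, 9.36 and 9.20 after it in Col-0. In xrn3-8 it stood at 10.98, 10.97 and 10.97 before and 10.08, 10.05 and 9.87 after. The change was -1.84 ± 0.08 in Col-0 and -0.97 ± 0.08 in xrn3-8, which places it close to the bound of -1 in the mutant line. KICP-02 encodes a kinesin, a motor protein of microtubules. Its 12 values were 5.69, 5.76 and 5.64 before cordycepin and 3.66, 3.75 and 3.54 after it in Col-0 and 5.99, 5.98 and 5.92 before and 5.09, 5.04 and 5.03 after in xrn3-8 and 24.2% and 53.2% of the signal was left.

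Another 5 genes of this group were named for a large difference, a high level or a change near 0. AT3G25400 encodes a dCTP pyrophosphatase-like protein. Its mean signal fell from 6.81 to 4.66 in Col-0 and from 6.73 to 5.93 in xrn3-8, a difference of 1.35 ± 0.13. For AT5G24570, of unannotated function, the means went from 9.09 to 6.44 in Col-0 and from 9.05 to 7.70 in xrn3-8 (difference 1.29 ± 0.12). The WD40 repeat gene AT1G78070 lost the most signal of all named members in Col-0. It changed by -3.16 ± 0.11 there and by -1.90 ± 0.11 in xrn3-8, leaving 11.2% and 26.7%. AT2G47440, a tetratricopeptide repeat gene, fell from 10.52 to 8.86 in Col-0 and from 10.09 to 9.65 in xrn3-8. AT1G28540 overlapped between the times in xrn3-8, with 5.11, 5.24 and 5.18 before and 5.13, 5.10 and 5.47 after, while it read 5.27, 5.44 and 5.63 before cordycepin and 4.29, 4.44 and 4.48 after it in Col-0.

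Other genes of the group, picked out by function after their values were seen, encode stress and signalling proteins. AT5G37670 encodes a small heat shock protein, with a change of -2.01 ± 0.17 in Col-0 and -0.76 ± 0.17 in xrn3-8. AT4G31000 encodes a calmodulin-binding protein (-1.13 ± 0.13 and -0.27 ± 0.13) and AT3G16800 a type PP2C protein phosphatase (-1.39 ± 0.12 and -0.50 ± 0.12). AT4G08170 encodes an inositol phosphate kinase (-1.82 ± 0.09 and -0.88 ± 0.09). AT4G32190 encodes a coiled-coil protein of starch granule initiation. It fell by 1.87 ± 0.08 in Col-0 and by 1.06 ± 0.08 in xrn3-8. AT5G32470 encodes a phosphatase of thiamine synthesis (-1.08 ± 0.09 and -0.27 ± 0.09). All of these had lower means at 60 min than at 0 min in both genotypes.

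Transcripts higher in xrn3-8 at both times numbered 12, 7 of them named. Their median genotype difference was 0.72 before cordycepin and 1.62 after it. The largest difference between the changes of any named member was that of AT3G13760, a gene for a protein with cysteine- and histidine-rich C1 domains. It read 5.11, 4.99 and 5.17 before cordycepin and 3.52, 3.58 and 3.39 after it in Col-0. In xrn3-8 it read 5.70, 5.67 and 5.96 before and 6.06, 5.76 and 5.78 after, with overlapping arrays, so its mean was 106% of the start in xrn3-8 while it was 33.1% in Col-0. AT2G34620 encodes a member of the mitochondrial transcription termination factor family, proteins that act in organelles. It stood at 5.43, 5.43 and 5.32 before cordycepin and 3.43, 3.40 and 3.48 after it in Col-0 and at 6.71, 6.68 and 6.28 before and 5.77, 5.52 and 5.66 after in xrn3-8. Thus the level in xrn3-8 after cordycepin was still above that of Col-0 before it on each array.

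AT2G37470, a histone H2B gene, read 5.80, 6.06 and 5.83 before cordycepin and 3.99, 3.77 and 3.58 after it in Col-0. In xrn3-8 it read 6.74, 6.66 and 6.58 before and 5.76, 5.50 and 5.54 after, a level at 60 min just below that of untreated Col-0. AT1G27480 encodes an enzyme of the lecithin-cholesterol acyltransferase family and changed by -1.24 ± 0.10 in Col-0 and -0.28 ± 0.10 in xrn3-8. The means of AT5G59080 went from 6.22 to 3.90 in Col-0 and from 6.73 to 5.45 in xrn3-8. Those of AT3G18050 went from 7.38 to 5.94 and from 8.17 to 7.55. The function of both genes is not annotated in the sources used here. The last named gene, AT2G29290, encodes a tropinone reductase-like enzyme and was 0.55 higher before and 1.43 higher after.

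**Figure D3:**
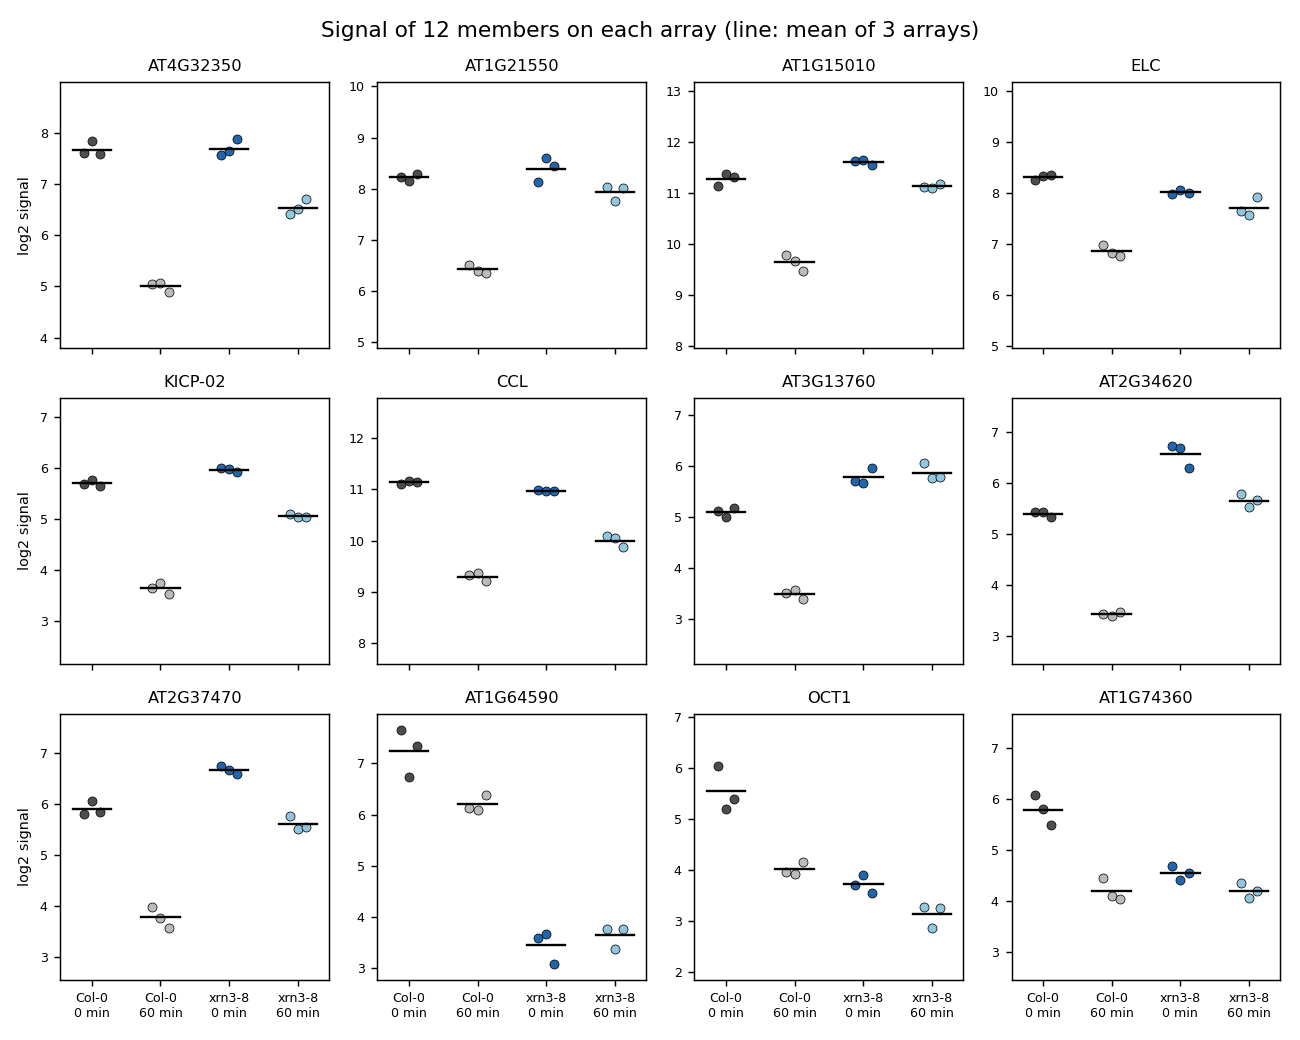
Log2 signal of 12 members on each of the 12 arrays, with points for arrays and a line for the mean of 3; every panel spans the same range of 5.2 log2 units. The upper 2 rows and the first panel of the lowest row show genes with similar or higher levels in xrn3-8 at 0 min and higher levels at 60 min, and AT1G64590, OCT1 and AT1G74360 show genes that were already lower in xrn3-8 at 0 min.

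For the 42 transcripts that began lower in xrn3-8, the label of transcripts kept in the mutant describes a smaller fall and not a level at least 0.5 higher. Their medians were 6.43 in Col-0 and 5.12 in xrn3-8 at 0 min, and 4.97 and 4.85 at 60 min, with a median genotype difference of -0.88 that closed to 0.05. At 60 min the difference ran from -2.56 to 0.49. The xrn3-8 arrays then lay all above Col-0 for some, such as AT3G01560 and 264661_at, and all below for others, such as AT1G64590. In 9 of the 42 the xrn3-8 mean at 0 min was less than 1 log2 unit above the lower quartile of those arrays. This held for 0 of the 68 that began under 0.5 apart and ended higher, a contrast that the cut on the start favours. The Col-0 mean at 60 min was as close to its quartile in 13 of the 42, 7 of the 68 and 5 of the 12 higher at both times.

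AT1G64590, a gene for a Rossmann-fold oxidoreductase, is the extreme case. It read 7.66, 6.74 and 7.34 before cordycepin and 6.13, 6.08 and 6.38 after it in Col-0. In xrn3-8 it read 3.58, 3.67 and 3.08 before and 3.77, 3.38 and 3.76 after, low at both times and with overlapping arrays. The genotype difference was -3.80 before and -2.56 after. OCT1 encodes a carnitine transporter of the plasma membrane. Its values were 6.04, 5.20 and 5.38 before cordycepin and 3.96, 3.92 and 4.16 after it in Col-0 and 3.71, 3.90 and 3.56 before and 3.28, 2.87 and 3.26 after in xrn3-8, where the arrays after cordycepin lay near or below the lower quartile (3.07 to 3.10). A similar picture was given by AT5G47740, of the adenine nucleotide alpha hydrolase family, at 6.42, 5.87 and 6.40 before cordycepin and 4.96, 5.15 and 5.56 after it in Col-0 and 3.82, 3.99 and 3.94 before and 3.48, 3.74 and 4.39 after in xrn3-8. AT3G49160, a pyruvate kinase family gene, fell from 5.46 to 3.92 in Col-0 and from 3.80 to 3.44 in xrn3-8. In all 4 genes the xrn3-8 mean at 0 min lay less than 1 log2 unit above the lower quartile of the arrays, and the part of this low start in the smaller fall was not tested.

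Most of the other genes named in this group stood at higher levels. AT4G16563, an aspartyl protease gene, fell from 9.38 to 7.84 in Col-0 and from 7.85 to 7.17 in xrn3-8, so it stayed lower in xrn3-8 throughout. GAT1_2.1 encodes a glutamine amidotransferase. It read 8.42, 8.32 and 8.34 before cordycepin and 5.83, 6.10 and 5.73 after it in Col-0 and 7.86, 7.76 and 7.57 before and 6.27, 6.25 and 5.97 after in xrn3-8, with a fall of 2.47 ± 0.11 and 1.57 ± 0.11. For AT4G35985, a senescence-associated gene, the genotypes overlapped at 60 min, and the mean went from 9.72 to 8.29 in Col-0 and from 8.91 to 8.28 in xrn3-8. AT3G50340 fell from 7.52 to 5.63 and from 6.49 to 5.42. AT3G62590 encodes a lipase and showed a difference between the changes of 1.35 ± 0.19, with an average genotype difference of -0.25 ± 0.09 in xrn3-8 minus Col-0 (adjusted p = 0.0428 in limma's test). This call was lost with array median centring (adjusted p = 0.0802) and on leaving out any 1 of 7 arrays (highest adjusted p = 0.119). Its means were 5.18 and 3.47 in Col-0 and 4.25 and 3.89 in xrn3-8. AT4G16670 fell by 1.06 ± 0.12 in Col-0, to a mean of 3.38 near the lower quartile, and its mean was 3.74 before and 3.62 after in xrn3-8.

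Genes for immune receptors and their relatives were spread over the groups, as described after their values were seen. AT1G74360 encodes a leucine-rich repeat receptor kinase. It read 6.08, 5.80 and 5.48 before cordycepin and 4.45, 4.10 and 4.04 after it in Col-0. In xrn3-8 it read 4.69, 4.41 and 4.54 before and 4.36, 4.05 and 4.20 after, so the genotypes overlapped after cordycepin. AT1G57630, which encodes a protein with a TIR domain (a signalling domain of immune receptors), went from 5.99 to 4.83 in Col-0 and from 4.99 to 4.89 in xrn3-8. Of the other TIR-domain genes, AT4G19530 and AT1G61100 started under 0.5 apart and ended 0.93 and 0.51 higher in xrn3-8. AT4G23440 differed by -0.43 before and 0.48 after. Calcium genes divided likewise: while AT1G21550 began under 0.5 apart, AT3G01830, which also encodes an EF-hand protein, began at 9.01 in Col-0 and 8.29 in xrn3-8 and changed by -2.67 ± 0.12 and -1.54 ± 0.12. AT1G11960, for a calcium channel of the OSCA family, changed by -1.54 ± 0.11 and -0.71 ± 0.11.

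In the small remaining groups, AT1G51090 and AT3G05220 both encode proteins of the heavy metal transport and detoxification family and were both among the strongest members. AT1G51090 read 9.43, 9.56 and 9.44 before cordycepin and 7.46, 7.36 and 7.45 after it in Col-0 and 8.62, 8.64 and 8.82 before and 8.05, 8.02 and 8.03 after in xrn3-8, so the order of the genotypes turned over on every array. AT3G05220 turned over as well, with 10.18, 10.08 and 10.17 before cordycepin and 8.01, 8.12 and 8.26 after it in Col-0 and 9.61, 9.64 and 9.83 before and 8.48, 8.58 and 8.81 after in xrn3-8. AT5G03490, a UDP-glycosyltransferase gene that has no symbol in the reference table and so was not set aside by name, had values of -1.05 ± 0.10 for the change in Col-0 and -0.21 ± 0.10 in xrn3-8.

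Among the other named members that started under 0.5 apart, AT5G40340, which encodes a PWWP domain protein, lost the most. Its mean went from 6.08 to 3.12 in Col-0, near the lower quartile, and from 6.19 to 4.27 in xrn3-8. AT1G70820, of the phosphoglucomutase family, ended 1.12 higher in xrn3-8, with changes of -1.61 ± 0.09 and -0.76 ± 0.09. AT1G02270, of the endonuclease, exonuclease and phosphatase family, ended 0.95 higher. The average genotype difference was called for all 3, at 0.63 ± 0.10, 0.70 ± 0.07 and 0.53 ± 0.07. It was also called for AT5G05710, a pleckstrin homology domain gene (0.47 ± 0.06), for the wound-responsive family gene AT5G66050 (0.24 ± 0.07), and for AT3G09085 (0.38 ± 0.06), AT1G04230 (0.32 ± 0.09) and AT3G27210 (0.21 ± 0.06). It was not called for the F-box gene AT2G17030 (0.15 ± 0.08), nor for AT5G53440, AT2G46900 and AT4G16490, which lay between 0.01 and 0.13. These calls were not recomputed under the other scalings.

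Among those that started lower, AT5G01210, an acyltransferase gene of the BAHD type, changed by -2.21 ± 0.12 and -1.32 ± 0.12. Its genotype difference was -0.90 before and -0.01 after. The bZIP factor gene AT5G44080 changed by -2.29 ± 0.10 and -1.43 ± 0.10, and AT1G11210 changed by -2.55 ± 0.12 and -1.66 ± 0.12. All 3 were called lower in xrn3-8 on average (-0.46 ± 0.08, -0.22 ± 0.07 and -0.28 ± 0.09). AT5G63010 and AT5G10210 ended near the lower quartile in both genotypes, with means of 3.10 and 3.40 in Col-0 and 3.13 and 3.29 in xrn3-8. AT3G01560 was 0.49 higher in xrn3-8 at 60 min after a start of -0.60. AT4G35320, which stayed under 0.5 apart at both times, had an average of 0.01 ± 0.07, the nearest to 0 of all named members.

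The largest difference in the set was on a probe set unnamed here. 249765_at read 10.83, 10.82 and 10.97 before cordycepin and 7.42, 7.46 and 7.55 after it in Col-0, and 10.57, 10.58 and 10.85 before and 9.49, 9.45 and 9.66 after in xrn3-8. It left 9.5% of the starting signal in Col-0 and 45.6% in xrn3-8, with the genotype means 2.06 apart at 60 min. Next among unnamed members came 267628_at, with a difference between the changes of 1.78 ± 0.18, and 254396_at with 1.59 ± 0.15. The 64 unnamed members comprised 33 that started under 0.5 apart and ended higher, 22 that started lower and 5 that were higher at both times. Their change in xrn3-8 was above -0.5 in 25 and -1 or lower in 22. On average over both times 37 were called higher in xrn3-8 (20.1% of all probe sets), 15 lower (21.4%), and 12 did not pass. The 15 called lower are near the share of all probe sets. The highest average of the 64 was that of 254564_at (1.39 ± 0.06, adjusted p = 3.04e-11) and the lowest that of 253182_at (-1.15 ± 0.09, adjusted p = 1.86e-08).

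At the threshold of 0.8, 5 members lay at 0.80. They were AT3G57800, a basic helix-loop-helix factor gene, the pleckstrin homology domain gene AT5G05710, 250665_at, 254697_at and 266542_at. Just outside were IAGLU, an auxin glucosyltransferase gene, and AT3G19240, both at 0.797. IAGLU changed by -1.25 in Col-0 and -0.45 in xrn3-8, and AT3G57800 by -1.71 and -0.91. The SE of the 7 differences was 0.13 to 0.20, so the edge of the set is not sharp.

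One measure has errors unrelated to those of the rule: the genotype difference averaged over both times, tested with limma over all 22746 probe sets. Of the 131, 72 were called higher in xrn3-8, 30 lower, and 29 did not pass. That is 55% higher and 22.9% lower, against 20.1% and 21.4% of all probe sets. Among the 1060 other probe sets that lost at least 1 log2 unit in Col-0 it was 31.9% and 29.6%. The share called higher is not independent of the rule in substance, because a member that starts level and ends at least 0.8 higher has an average above 0 by arithmetic, and likewise the direction of the average in each group above follows from how the groups were cut.

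Among named members AT2G34620 was the most raised (1.69 ± 0.07, adjusted p = 2.91e-11), followed by AT3G13760 (1.53 ± 0.07, adjusted p = 6.86e-11) and AT2G37470 (1.29 ± 0.08, adjusted p = 1.15e-09). AT1G27480 (1.24 ± 0.07), AT3G18050 (1.20 ± 0.07) and AT5G59080 (1.03 ± 0.09) came next. The most reduced were AT1G64590 (-3.18 ± 0.14, adjusted p = 2.19e-11), AT5G47740 (-1.83 ± 0.14, adjusted p = 2.35e-08) and OCT1 (-1.35 ± 0.12, adjusted p = 1.47e-07). AT4G16563 (-1.10 ± 0.07), AT3G49160 (-1.07 ± 0.09) and AT3G50340 (-0.62 ± 0.10) were lower as well.

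Among genes with a symbol, KICP-02 (0.83 ± 0.05, adjusted p = 3.35e-09), ELC (0.28 ± 0.07, adjusted p = 0.00262) and CCL (0.27 ± 0.06, adjusted p = 8.88e-04) were higher in xrn3-8 on average. The calls of ELC and CCL were lost when arrays were centred on hybridization controls. For GAT1_2.1 the average was -0.18 ± 0.08 (adjusted p = 0.0803), which did not pass. AT1G51090 (-0.09 ± 0.06, adjusted p = 0.245) and AT3G05220 (0.02 ± 0.07, adjusted p = 0.844), whose genotype order turned over, did not pass either, and the sign of the latter changed with the setting.

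**Figure D4:**
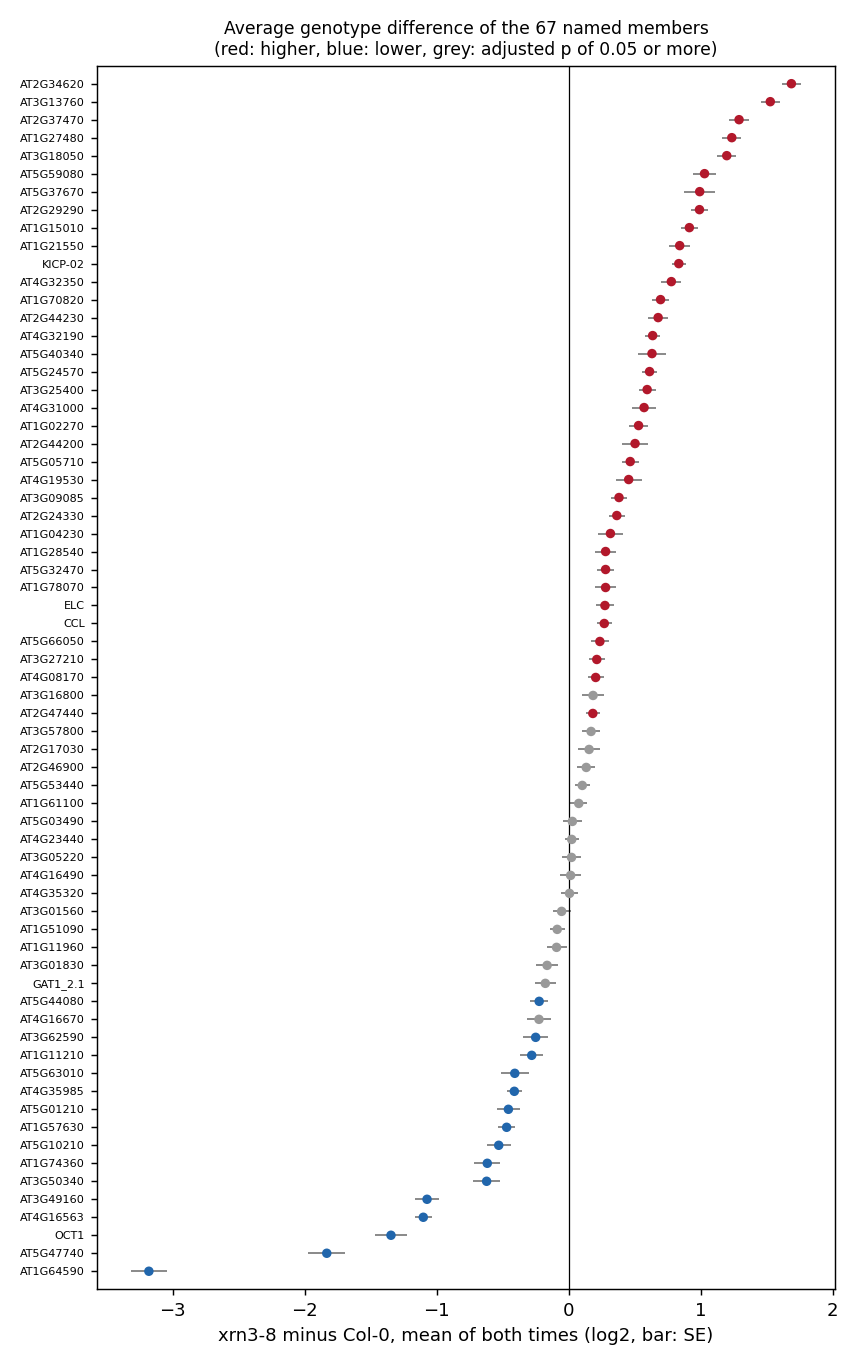
Average genotype difference (xrn3-8 minus Col-0, mean of both times, log2) of the 67 named members, with the SE of the fit as a bar; red and blue points passed an adjusted p of 0.05. Of the named members, 35 were higher, 15 lower, and 17 did not pass, from -3.18 for AT1G64590 to 1.69 for AT2G34620. The higher and lower ones are 52.2% and 22.4% of the 67, against 20.1% and 21.4% of all probe sets.

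The members were 11% of the 1191 probe sets that lost at least 1 log2 unit in Col-0. The 1060 others had median changes of -1.38 in Col-0 and -1.16 in xrn3-8. The median signal in untreated Col-0 was 7.26 for members, 7.02 for the other lost transcripts and 4.87 for all probe sets. The rule with the genotypes exchanged, for transcripts lost in xrn3-8 and less so in Col-0, picked 70 probe sets, against 136 before names were set aside. This balance depends on the scaling. Centred on Bacillus subtilis controls it was 166 against 65, on hybridization controls 111 against 96, and on the array median 58 against 101. Such centring moves the difference between the changes of every probe set by the same amount, and its median over all probe sets went from 0.02 to -0.14, -0.05 and -0.01. It also moves each change against its own threshold. The median change went from 0.07 to -0.25, -0.12 and 0.25 in Col-0, and from 0.09 to -0.39, -0.17 and 0.24 in xrn3-8. With array median centring, 109 of the 131 members still had a change of -1 or lower in Col-0.

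None of the 22 measured genes of 6 pathway lists was a member, nor any of the 119 measured genes of 13 families chosen by symbol. Choosing by symbol misses family genes that carry only a locus code. The bZIP factor gene AT5G44080, for one, is a member but is not on the bZIP list. Members were 0.576% of all probe sets, so a count of 0 in lists of this size is near the background and is no result about the lists. EXLA2, XTH33 and the UGT genes on them could not be members, since the rule leaves them out by name. The short-lived stress transcripts on these lists fell in both genotypes. All 5 measured of 25 were lower in Col-0 and all 5 in xrn3-8. The zinc finger factor gene STZ left 17% in Col-0 and 17.1% in xrn3-8, CML38, a calmodulin-like gene, 25.7% and 26%, and the ubiquitin ligase gene PUB23 38.1% and 41.5%. The median difference between the changes on this list was 0.01. Of the RNA decay and exosome list 8 of 21 genes were measured, with median changes of -0.10 in Col-0 and 0.08 in xrn3-8. In Col-0, 2 were lower and 2 higher, and in xrn3-8, 1 was lower and 3 were higher. By the average genotype difference, AT1G79090 was higher in xrn3-8, and LSM1B and UPF3, a factor of nonsense-mediated decay, were lower. The limma calls of AT1G79090 (adjusted p = 0.0431) and LSM1B (adjusted p = 0.0449) were close to the threshold. Of all probe sets, 20.1% were called lower in Col-0, and 15.9% lower and 24.5% higher in xrn3-8. By genotype 20.1% were higher and 21.4% lower. The counts among these 8 genes are therefore a description and no result about the list.

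In the gene order of the reference, 48 named members had at least 1 measured protein-coding neighbour, 66 neighbours in all. None of these was a member, and none had a difference between the changes of 0.8 or more. Among all named probe sets the shares were 0.496% and 0.718%, so counts of 0 among 66 are near the background. The median difference of the neighbours was -0.08, against 0.02 over all named genes. Of the 66, 2 fell by 1 or more in Col-0, against 1191 of all 22746 probe sets, so this count is a description. The 2 were AT1G74370 beside AT1G74360 (-1.55 in Col-0 and -0.89 in xrn3-8) and AT4G35987 beside AT4G35985 (-1.19 and -0.63). Their differences between the changes were 0.66 and 0.56. Other neighbours went the other way. The difference was -1.48 for AT2G24320 beside AT2G24330, -1.44 for AT4G19520 beside AT4G19530 and -1.29 for AT1G02260 beside AT1G02270. AT4G32360, beside AT4G32350, changed by 0.69 in Col-0 and -0.17 in xrn3-8, a difference of -0.86. The share of all named probe sets with differences this far below 0 was not computed, so these values are a description. The closest members on a chromosome were AT2G44200 (-1.95 ± 0.14 in Col-0 and -1.01 ± 0.14 in xrn3-8) and AT2G44230 (-2.19 ± 0.10 and -1.38 ± 0.10), with 2 protein-coding genes between them, and AT1G15010 and GAT1_2.1, with 3 between. AT1G15010 and GAT1_2.1 differed at the start, with a genotype difference of 0.34 and -0.63.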

How the data were processed

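The authors deposited log2 signals for every probe set on each of the 12 arrays. Background correction, normalization and summary method are not given in the sources used here. The tools affy 1.48.0 and limma 3.26.9 are named per the submitters' processing notes. Of 22810 probe sets, 64 Affymetrix controls were left out. Genes were named through the probe table and matched by Entrez identifier to the RefSeq table of assembly TAIR10.1. Exactly 1 gene is listed for 13513 probe sets, 503 list several, and 8730 are not listed there.

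Means of the 4 groups were estimated jointly from the 12 arrays (R 4.3.3, limma 3.58.1, lmFit and eBayes; residual degrees of freedom 8, prior 7.96), two-sided, with Benjamini-Hochberg adjustment over 22746 probe sets and calls at an adjusted p under 0.05. The fit was tested on simulated data. With equal spread, the genotype difference averaged over both times is uncorrelated in its errors with the 3 values of the rule, which carry no test. The members and lists were chosen with earlier results of these data known. Genes were named for a symbol, for the 8 largest differences between the changes, for the 6 highest levels in untreated Col-0, for the 6 highest changes in xrn3-8, and for the 6 largest average differences each way. Alternative scalings, filters, thresholds, variance models, a replicate block and the removal of single arrays were tried. P values set a difference against the spread between arrays of the same group, pooled over the 4 groups and drawn towards the prior of the fit.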

Additional observations from a re-analysis of the deposited data

How the results depend on the processing

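The size of the set of 131 depended on scaling and thresholds. Centring on Bacillus subtilis controls left 62 probe sets (54 of them shared), on hybridization controls 93 (85 shared) and on the array median 97 (95 shared). Thresholds tightened by 0.2 left 44 and loosened by 0.2 gave 369. With the genotypes exchanged, a count added after seeing the data, 70 probe sets were found. Leaving out 1 array gave 123 to 150, of which 111 to 122 were shared. Members called in the average genotype difference were 72 higher and 30 lower, with 71 to 74 and 28 to 34 when 1 array was left out, and 60 and 32 with hybridization control centring. The main fit did not pair arrays by replicate number, and whether the numbers mark pairs was not settled. Of 18 correlations between same-numbered arrays, 4 were over 0.1 (range -0.09 to 0.18), and 7 of 12 arrays correlated best with their own number. With the replicate number as a block, 9586 probe sets were called instead of 9456, and 72 members higher and 35 lower. Over the genes named by rule, 572 of the alternative values kept the side of the threshold and the direction, 13 lost the call, 9 gained it and 5 turned direction without a call. These 5 were all of AT3G05220, whose average was -0.023 with hybridization control centring, -0.0010 with array weights, and -0.025 to 0.0575 when 1 array was left out, below 0 without Col-0 replicate 1 at 60 min or xrn3-8 replicate 3 at either time. AT3G62590 lost its call with array median centring and without any 1 of 7 arrays (Col-0 replicates 1 and 3 at both times, xrn3-8 replicates 1 and 2 at 0 min and 2 at 60 min). Levels near the lower quartile of an array limit how large a loss can be measured.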
